A study of Mus musculus with 2 samples.

Results

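The genes Cebpb, Cebpa, Runx1, Runx2, Rgcc, Snap25 and Errfi1 encode regulators linked to the ovulatory surge of luteinising hormone in mouse follicles. They were taken by name from the count tables of both ovary sections, and are 7 of the 22204 gene names in either table. The table of the old section listed all 7 and the table of the young section listed 6, since Snap25 had no entry there. Expression had been mapped by Slide-seq, which captures the RNA of a tissue slice on beads that carry a barcode for each array position. The old group was 1 section (replicate 1) from a C57BL6/J female of about 14 months, and the young group was 1 section (replicate 3) from a C57BL6/J female of 2 months. The labels' protocols give 2 females and 4 frozen sections, each 10 µm thick, for every age, with planes picked for several oocytes, and the remaining slices were not analysed here. With 1 library a group, an effect of age cannot be told apart from one of the animal, the plane of the slice or the library, no test was possible, and every 95% interval below covers counting error only.

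In a preovulatory follicle the surge acts on granulosa cells through cyclic AMP, EGF-like growth factors and ERK kinases. Transcription factors of the C/EBP and RUNX families are among the early targets, and granulosa cells lacking Cebpa and Cebpb fail to luteinise in mice. After ovulation the granulosa and theca cells become the corpus luteum, the progesterone-forming body in which Runx2 is also known to be expressed.

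Counts summed to 2348768 over 10267 beads in the old section and to 5158314 over 21403 beads in the young section. The median was 125 counts a bead in the old section, against 153 in the young section, mitochondrial genes took 1.37% and 1.79% of counts in the old and young sections, and the sections shared 0 bead barcodes. Levels are in CPM, counts per 1000000 counts of the section or of the bins named. A bead can hold RNA of several cells, so fewer cells of a type and less RNA per cell cannot be told apart. For position, beads were summed in squares of 5 bead spacings, and squares with at least 500 counts (bins) were kept, 1419 in the old section, against 1589 in the young. Ovarian markers were present in both sections: in these bins the luteal list had 10353 counts in the old section, against 16123 in the young, the granulosa list had 5023 old and 45314 young counts, and the oocyte list had 491 old and 11201 young counts.

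Over whole sections, 6 of the 7 genes were at least 1.5-fold higher in the old section and 0 were lower by that size. Of the 12586 genes with at least 20 counts in 1 section, 22.6% were higher by that size and 25.4% were lower. Among the transcription factors, Cebpb, which encodes C/EBP-beta, had 1628 counts or 693 CPM (95% interval 660 to 728) in the old section and 1481 counts or 287 CPM (273 to 302) in the young section. The old/young ratio was 2.41 (2.25 to 2.59). Its family member Cebpa, which encodes C/EBP-alpha, ran the other way and had 217 counts or 92.4 CPM in the old section, against 654 counts or 127 CPM in the young section. Its ratio was 0.729 (0.622 to 0.851), short of the 1.5-fold size. When the high x, low y quadrant of the old tissue was left out, the Cebpa ratio was 0.480.

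The runt-family factors Runx1 and Runx2 were both higher in the old section by a similar factor. Runx1 had 1032 counts or 439 CPM in the old section and 500 counts or 96.9 CPM in the young section, a ratio of 4.53 (4.07 to 5.05). Runx2 had 568 counts or 242 CPM in the old section and 266 counts or 51.6 CPM in the young section, a ratio of 4.69 (4.05 to 5.45). The intervals of the 2 RUNX ratios overlap, so their order is not settled by these counts.

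The other 3 genes act downstream of the surge signal rather than on transcription. Rgcc, whose protein binds the mitotic kinase CDK1, had 678 counts or 289 CPM in the old section and 329 counts or 63.8 CPM in the young section, a ratio of 4.53 (3.96 to 5.18). Errfi1, a feedback inhibitor of the EGF receptor, had 232 counts or 98.8 CPM in the old section and 196 counts or 38.0 CPM in the young section, a ratio of 2.60 (2.14 to 3.16). Snap25, a SNARE protein of vesicle fusion best known from neurons, had 41 counts on 37 beads in the old section, which is 17.5 CPM (12.5 to 23.7), and was taken as 0 counts in the young section. Against a floor of 3 counts in the whole young section, its level in the old section was 30.0-fold higher. That value leaves out the counting error of the 41 old counts. With 0 young counts, the lower counting limit of the old/young ratio was 23.3. Cebpa was thus the exception among the 7, as the plot of section levels shows.

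**Figure D1:**
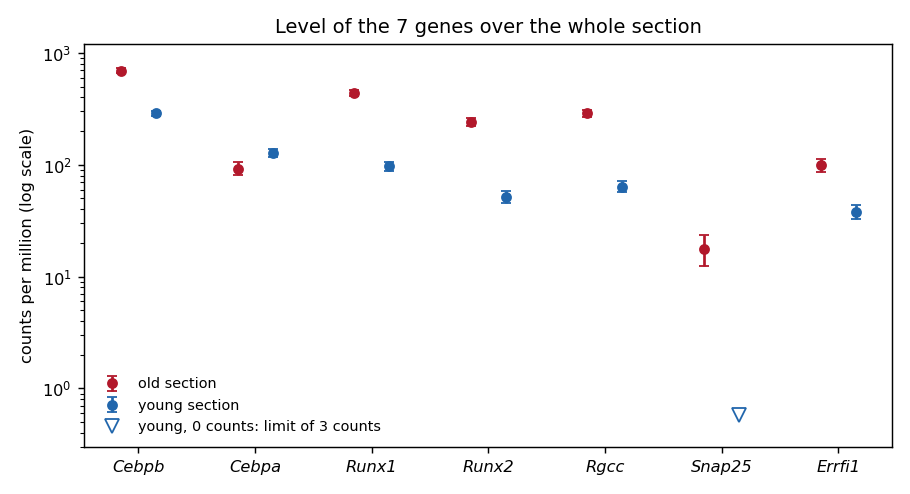
Level of each gene over all beads of the old section (red) and the young section (blue), in CPM on a log axis, with exact Poisson 95% intervals for counting error only. The old section is higher for 6 genes and lower for Cebpa, at 92.4 against 127 CPM; the open triangle marks the limit of 3 counts for Snap25 in the young section, where it had 0 counts.

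The start regions of these genes are shown because all 7 genes were higher in the periovulatory bins of the old section, and because the surge acts through cyclic AMP. RefSeq (GRCm38.p6) start regions, from 250 bases before to 50 after a gene's start, were held for 6 of the 7 genes, with 8 regions in all, and there was none for Snap25 in the table used. They were searched on both strands for the cyclic AMP response element TGACGTCA, its short form TGACG, the C/EBP motif TTGCNNAA, the RUNX motif TGTGGT and the GC box GGGCGG. Of 32851 mouse start regions of the same length, 1.79% held TGACGTCA, 20.8% TGACG, 10.8% TTGCNNAA, 16.8% TGTGGT and 35.7% GGGCGG; every TGACGTCA also counts as TGACG. A match is a description of the letters and shows no binding.

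Cebpb lies at chr2:167688915-167690432, and Errfi1 at chr4:150853796-150868889. Cebpb held 3 matches to TGACG, beginning 180, 53 and 7 bases before its start, and 5 GC boxes. Errfi1 has a second start region, and that region was the only one of the 8 with a full TGACGTCA, 51 bases before the start. The 250 bases before each start are given 5′ to 3′ on the plus strand, with TGACGTCA, the short form TGACG or the short form as read on the other strand (CGTCA) in capitals, for chr2:167688665-167688914 and chr4:150854820-150855069.
Cebpb: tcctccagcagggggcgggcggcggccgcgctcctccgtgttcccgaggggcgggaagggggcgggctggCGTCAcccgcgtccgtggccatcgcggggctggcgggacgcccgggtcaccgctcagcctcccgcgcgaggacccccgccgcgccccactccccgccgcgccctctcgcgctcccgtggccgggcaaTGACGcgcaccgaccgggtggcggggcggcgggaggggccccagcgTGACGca
Errfi1, second start region: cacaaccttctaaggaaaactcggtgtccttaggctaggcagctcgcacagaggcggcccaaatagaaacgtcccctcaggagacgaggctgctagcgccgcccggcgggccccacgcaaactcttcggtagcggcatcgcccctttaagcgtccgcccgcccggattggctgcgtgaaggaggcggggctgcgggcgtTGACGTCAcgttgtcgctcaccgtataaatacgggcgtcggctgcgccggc

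Runx1 lies at chr16:92601466-92826074 and Runx2 at chr17:44495987-44814797, both on the minus strand. The Runx2 region held 3 matches to the RUNX motif and 1 to the C/EBP motif, which begins 48 bases before the start. The second Runx1 start region held 2 RUNX matches, and the first held none of the 5 motifs. The start used for Runx2 lies inside the gene span given above. The Runx2 bases from 250 before that start (chr17:44814628-44814877, minus strand), partly within the span, carry 1 RUNX match in capitals, read on the other strand as ACCACA.
Runx2: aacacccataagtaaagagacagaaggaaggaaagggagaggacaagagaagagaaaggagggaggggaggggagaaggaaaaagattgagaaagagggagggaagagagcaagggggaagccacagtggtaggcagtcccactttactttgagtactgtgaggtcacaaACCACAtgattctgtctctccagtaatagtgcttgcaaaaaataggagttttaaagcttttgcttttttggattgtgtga
The other RUNX matches of both genes lie just after the start, in a stretch of 22 bases that the genes share letter for letter, at chr16:92826030-92826051 for Runx1 and chr17:44814588-44814609 for Runx2.
Shared by Runx1 and Runx2: aaacaACCACAgaACCACAagt

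Of the others, Rgcc (chr14:79288750-79301635) held 1 TGACG and 5 GC boxes. The start region of Cebpa (chr7:35119293-35121928) held none of the 5 motifs, and Snap25 lies at chr2:136713439-136782428. The first Errfi1 region held 1 RUNX match. Genes with and without these motifs were among those higher in the periovulatory bins.

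In the old section, all 7 genes were higher in periovulatory bins than in the other bins. Periovulatory bins were the fifth of bins, 284 of 1419, with the highest share of the list Adamts1, Ptgs2, Tnfaip6, Btc, Has2, Ptx3, Areg, Ereg and Pgr, genes of the ovulating follicle that include none of the 7. At least 1.5-fold higher in this contrast were 12.6% of 9527 genes with at least 20 counts on 1 side, and 26.3% were lower. The list stood at 4614 CPM in the periovulatory bins and 202 CPM in the other bins, and the matrix protease gene Adamts1 supplied 3211 of its 3309 counts. Has2 and Pgr had 0 counts in the periovulatory bins, and 1 and 2 in the other bins. Ptx3 had 4 counts in periovulatory and 7 in other bins, Ptgs2 23 and 9, and Tnfaip6 19 and 4. Btc had 37 and 1, Ereg 12 and 0, and Areg 3 and 0.

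Runx1 had 792 counts or 1104 CPM (1029 to 1184) in periovulatory bins and 203 counts or 137 CPM in the other bins, a ratio of 8.04 (6.88 to 9.43). Runx2 had 342 counts or 477 CPM (428 to 530.2) in periovulatory bins and 216 counts or 146 CPM in the other bins, a ratio of 3.26 (2.74 to 3.89). The counting intervals of the RUNX ratios do not overlap, but their order turned without the quadrant of low x and high y, with Runx1 at 4.68 and Runx2 at 5.93. Periovulatory bins in neither other set, set against the bins in none of the periovulatory, luteal and steroid-forming sets described below, gave 6.87 for Runx1 and 6.54 for Runx2.

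Cebpb had 825 counts or 1150.4 CPM in periovulatory bins and 701 counts or 474 CPM in the other bins, a ratio of 2.43 (2.19 to 2.69). Cebpa had 153 counts or 213 CPM in periovulatory bins and 56 counts or 37.9 CPM in the other bins, a ratio of 5.63 (4.12 to 7.79). The C/EBP gene that was lower in the old section as a whole was therefore, within that section, the more concentrated of the 2 in the periovulatory bins.

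Rgcc had 478 counts or 667 CPM in periovulatory bins and 164 counts or 111 CPM in the other bins, a ratio of 6.01 (5.02 to 7.22). Errfi1 had 156 counts or 218 CPM in periovulatory bins and 69 counts or 46.7 CPM in the other bins, a ratio of 4.66 (3.49 to 6.28). Snap25 had 36 of its 40 binned counts in periovulatory bins, with 50.2 CPM there and 2.71 CPM in the other bins, a ratio of 18.5 (6.65 to 71.7). With so few counts the Snap25 ratio is known only within a wide range.

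When the bins were ranked without Adamts1, all 7 genes kept a ratio above 1, but each was smaller: 2.39 for Runx1, 2.44 for Rgcc, 2.44 for Cebpa, 7.38 for Snap25, 2.77 for Errfi1, 1.55 for Runx2 and 1.48 for Cebpb. This ranking rests on few counts, since Adamts1 supplied 3211 of the 3309 list counts in the periovulatory bins. Bins without a count of the shortened list were left out, so the set was smaller than 284 bins. These ratios are therefore not a like-for-like check of the main ones. With the tenth of bins in place of the fifth, the ratios of Runx1, Rgcc, Cebpa and Snap25 were 4.23, 3.23, 2.98 and 8.07. Leaving out a quadrant of the section moved 4 genes by over 1.5 times. Without low x and low y, Cebpa was at 8.77 and Snap25 at 57.7. Without low x and high y, Cebpa was at 3.35, Runx1 at 4.68, Runx2 at 5.93 and Snap25 at 5.63. Snap25 was at 10.8 without high x and low y, and at 7.45 without high x and high y.

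Periovulatory bins were deeper, with a median of 2200 counts a bin against 1103 in the other bins. Markers of other cell types were mostly lower there: the macrophage list stood at 149 CPM against 902 CPM in the other bins, with 0 of 11 measured genes higher, and the blood endothelium list at 155 CPM against 547 CPM, with 0 of 7 higher. Mitochondrial genes stood at 9862 CPM against 14780 CPM in the other bins, and the nuclear RNAs Neat1 and Malat1 at 17951 CPM against 26770 CPM. The granulosa list stood at 2590 CPM against 2142 CPM, with 2 of 7 measured genes higher and with Amh and Cyp19a1 at 0 counts in the periovulatory bins. Because Snap25 is also a nerve gene, the nerve list was set beside it: it stood at 146 CPM in periovulatory bins against 133 CPM in the other bins, with 1 of 4 measured genes higher. In the whole old section Stmn2, Th, Dbh and Gap43 had 0 counts, and Uchl1, which oocytes also express, supplied 81 of the 105 nerve-list counts in the periovulatory bins. The oocyte list stood at 39.0 CPM in the periovulatory bins against 313 CPM in the other bins, with 0 of 9 measured genes higher. The part that depth or RNA quality played in these ratios was not tested.

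The periovulatory bins formed 2 separate patches, which held 256 of the 284 bins, 149 at high x and low y and 107 at low x and low y. Every one of the 7 genes was high in both. Runx1 stood at 1048 CPM (958 to 1145) in the larger patch and 1294 CPM (1151 to 1451) in the smaller, and Runx2 at 441 CPM (383 to 505) in the larger and 570.3 CPM (477 to 677) in the smaller. Rgcc stood at 684 CPM in the larger patch and 667 CPM in the smaller, and Cebpb at 1229 and 1048 CPM. Cebpa stood at 230.1 CPM in the larger patch and 197 CPM in the smaller, and Errfi1 at 237 and 184 CPM. Snap25 had 26 counts in the larger patch and 9 in the smaller, which are 55.4 and 39.5 CPM. The patch intervals of Runx1 do not overlap, with the smaller patch higher, while those of the other 6 genes do.

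**Figure D2:**
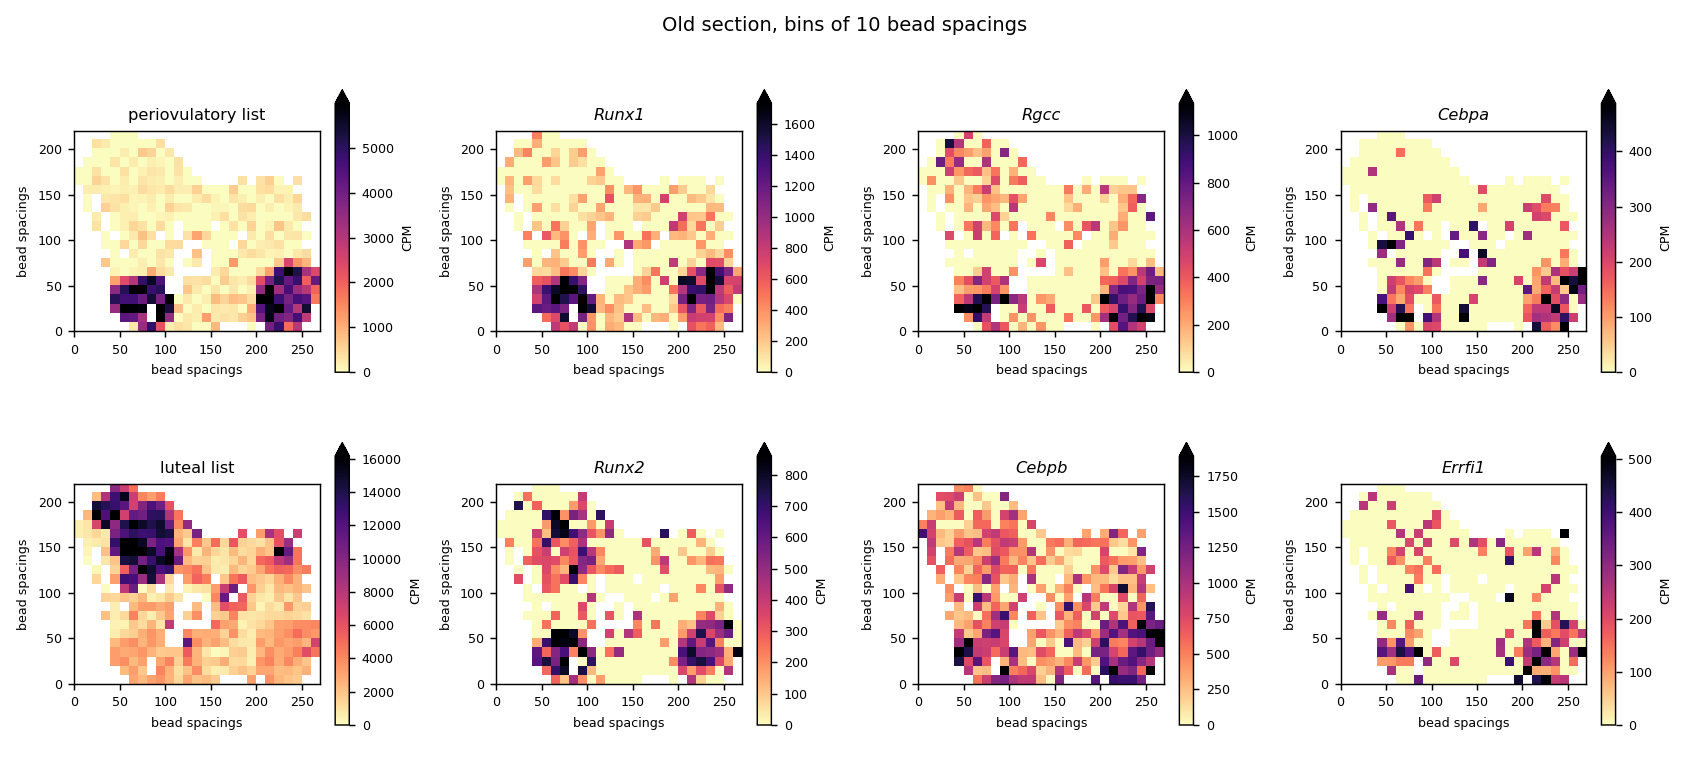
Old section in squares of 10 bead spacings with at least 2000 counts, coloured by CPM of the gene or list named above each panel, with axes in bead spacings; colours end at the 98th percentile of a panel. Both dark patches of the periovulatory list, at the lower left and lower right, are also dark for the 6 genes, and Runx2 is dark in addition in the luteal area at the upper left, where it stood at 375 CPM.

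Across the border of these patches the levels dropped within a few bead spacings. Runx1 stood at 1104 CPM in the periovulatory bins, 314 CPM (237 to 408) in bins within 5 spacings of them, 149 CPM at 5 to 10 spacings, 118 CPM at 10 to 20 and 99.6 CPM beyond. Rgcc stood at 667 CPM in the periovulatory bins, 118 CPM within 5 spacings, 66.6 CPM at 5 to 10, 94.9 CPM at 10 to 20 and 132 CPM beyond. Cebpb stood at 1150.4 CPM in the periovulatory bins, 747 CPM within 5 spacings, 487 CPM at 5 to 10, 405 CPM at 10 to 20 and 443 CPM beyond. In the nearest ring Runx1 and Cebpb were above their levels in all 3 more distant rings. The Rgcc intervals of the nearest ring (73.0 to 180 CPM) and the farthest (106 to 163 CPM) overlap, so their order is not settled. Runx2 stood at 477 CPM in the periovulatory bins, 135 CPM within 5 spacings, 66.6 CPM at 5 to 10, 109 CPM at 10 to 20 and 196 CPM beyond. Its farthest bins were again higher than those at 5 to 10 spacings, and they include the luteal area.

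Inside the patches, the intervals of edge bins and of the bins next to them overlapped for 6 of the 7 genes. Runx1 stood at 1063 CPM in 193 edge bins and 1232 CPM in the 59 bins next to them. Cebpb stood at 1241 CPM (1143 to 1345) in edge bins and 1026 CPM (893 to 1173) in the next bins. Rgcc stood at 604 CPM (536 to 678) in edge bins and 863 CPM (742 to 999) in the next bins. The Rgcc intervals do not overlap, and Rgcc was higher away from the edge. Only 4 bins lay deeper and their values are not given.

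Ranked by their share of the periovulatory list, the old bins were set in 5 steps: 894 bins with no count of the list, and the other 525 in 4 groups of 131 or 132. Of the 7 genes, 5 had their highest level in the last step. Runx2 stood at 142, 155, 174, 321 and 618 CPM from the first step to the last, and Errfi1 at 43.9, 47.9, 87.0, 156 and 268 CPM. Runx1 stood at 126, 103, 317, 1078 and 1170 CPM. Runx2 was higher in the last step than in the one before, with intervals of 541.6 to 701.5 CPM in the last and 261 to 391 CPM in the one before, whereas the Runx1 intervals there overlap. Rgcc stood at 111, 88.3, 180.2, 698 and 665 CPM, and Cebpb at 443, 512, 733, 1205 and 1105 CPM. Both were highest in the step before the last, with intervals that overlap those of the last. Cebpa stood at 29.9, 33.1, 99.4, 218 and 222 CPM, and Snap25 had 3, 0, 3, 8 and 26 counts.

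Left without its periovulatory bins, the old section still had higher levels than the young section for some of the genes. At least 1.5-fold higher than in all young bins were Cebpb, Runx2 and Rgcc, where 23.1% of 12440 genes were higher by that size and 24.8% were lower. Runx2 stood at 146 CPM in these old bins and 51.4 CPM in the young bins, a ratio of 2.84 (2.36 to 3.42). Rgcc stood at 111 CPM in the old and 62.8 CPM in the young bins, a ratio of 1.77 (1.45 to 2.14), and Cebpb at 474 CPM in the old and 288 CPM in the young bins, a ratio of 1.64 (1.50 to 1.80). Runx1 stood at 137 CPM in these old bins and 97.6 CPM in the young bins, a ratio of 1.41 (1.19 to 1.66), and Errfi1 had a ratio of 1.21 (0.906 to 1.60). Cebpa stood at 37.9 CPM in these old bins and 127 CPM in the young bins, a ratio of 0.299 (0.224 to 0.394). Snap25 had 4 counts in these old bins and 0 in the young bins. Without the periovulatory bins, Runx1 and Errfi1 thus no longer reached 1.5-fold, and Cebpa was lower by more than over the whole section. Leaving them out was an alternative chosen after seeing the data.

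The young section offered no like comparison, because the periovulatory list had 153 counts in all, in 130 of 1589 bins. In those 130 bins 0 of the 6 genes were at least 1.5-fold higher, where 6.59% of 12128 genes were. Runx1 was lower there, at 64.8 CPM against 102 CPM in the other young bins, a ratio of 0.638 (0.441 to 0.896), where 14% of genes were lower.

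Luteal bins were the fifth of bins with the highest share of Ptgfr, Prlr, Akr1c18, Sfrp4, Onecut2, Scarb1 and Lhcgr, genes of the corpus luteum for hormone receptors, cholesterol uptake and progesterone breakdown. In the young section Runx2 and Rgcc were at least 1.5-fold higher in these 318 bins and 0 of the 6 genes were lower, where 11.3% of 11967 genes were higher and 26.4% were lower. Runx2 had 171 counts or 191 CPM (163 to 222) in luteal bins and 90 counts or 21.5 CPM in the other bins, a ratio of 8.87 (6.83 to 11.6). Rgcc had 92 counts or 103 CPM in luteal bins and 227 counts or 54.3 CPM in the other bins, a ratio of 1.89 (1.47 to 2.42). Cebpb stood at 303.5 CPM in luteal bins and 285 CPM in the other bins, with a ratio of 1.06, Cebpa had a ratio of 0.953, Runx1 of 1.11 and Errfi1 of 0.945. The intervals of these last 4 ratios all held 1. With the third of bins in place of the fifth, Rgcc was at 1.35 in luteal bins, and with squares of 3 bead spacings Errfi1 was at 0.628. The macrophage list also stood higher in the young luteal bins, at 1459 CPM against 581 CPM, with 11 of 12 measured genes higher, and so did the stromal fibroblast list, at 1955 CPM against 981 CPM, with 3 of 8 higher, and Neat1 and Malat1, at 45406 CPM against 23353 CPM. Their part in the Runx2 and Rgcc values was not tested.

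The young luteal bins fell in 5 patches, and Runx2 was present in each. In the 3 large patches, of 92, 90 and 68 bins, Runx2 stood at 201, 164 and 245 CPM, and Rgcc at 75.5, 92.9 and 119 CPM. The 2 small patches of 10 bins each had 2 and 6 counts of Runx2. In 5 equal groups of young bins, from the lowest luteal share to the highest, Runx2 stood at 6.45, 13.1, 25.9, 52.9 and 191 CPM. Each step was higher than the one before, and the last interval (163 to 222) lay above that of the step before it (38.4 to 71.0). Runx1 took no such order, at 140.4, 90.9, 70.8, 54.1 and 106 CPM.

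**Figure D3:**
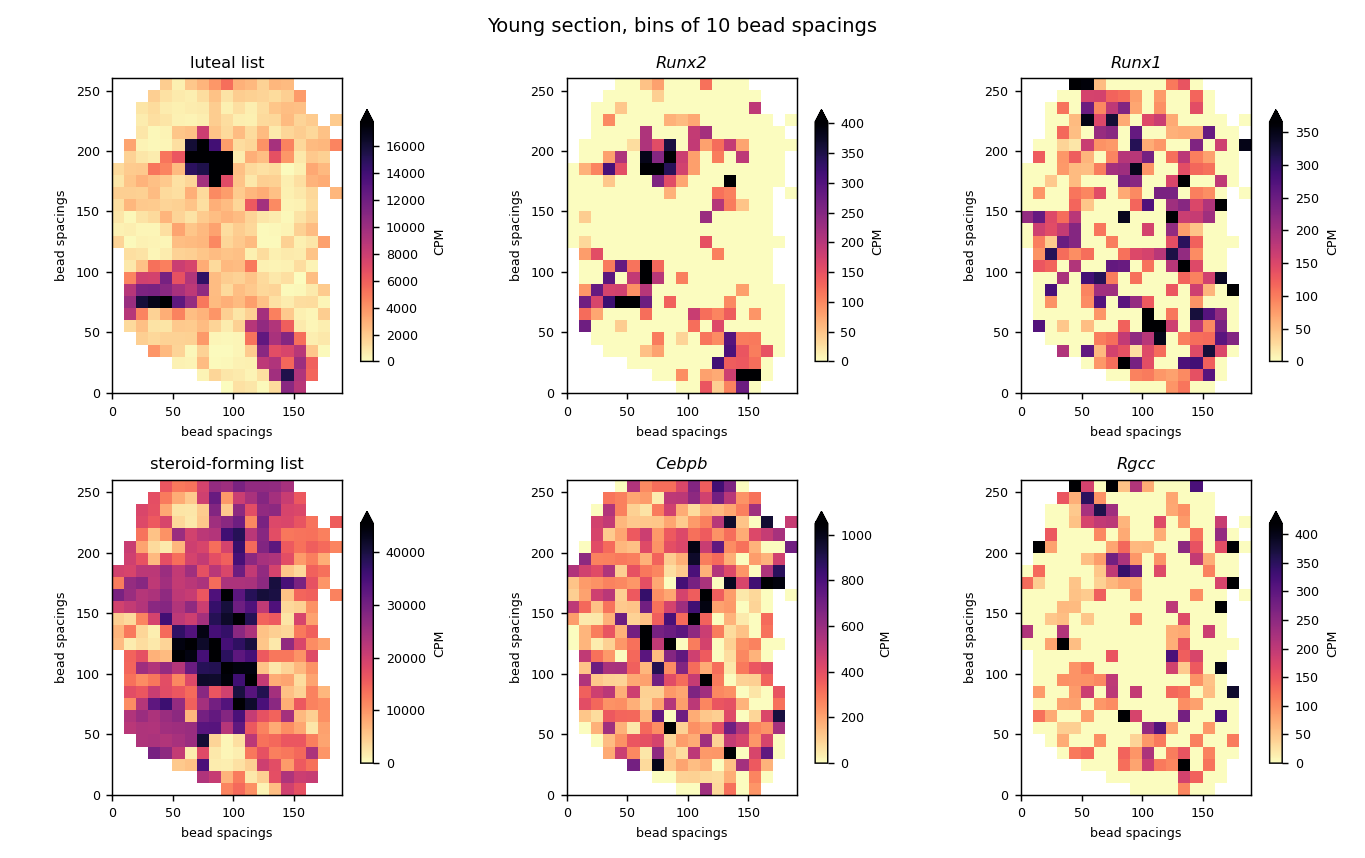
Young section in squares of 10 bead spacings with at least 2000 counts, coloured by CPM of the gene or list named above each panel, with axes in bead spacings; colours end at the 98th percentile of a panel. Runx2 is dark where the luteal list is dark, in 3 large patches at 164 to 245 CPM, while Cebpb follows the steroid-forming list, with 522 CPM in the steroid-forming bins.

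In the old section, 0 of the 7 genes were at least 1.5-fold higher in luteal bins than in all other bins and 5 were lower, where 10.2% of 9839 genes were higher and 28.1% were lower. Runx2 had 138 counts or 332 CPM (279 to 392) in luteal bins and 420 counts or 236 CPM in the other bins, a ratio of 1.40 (1.15 to 1.71). Cebpb stood at 509 CPM in luteal bins and 739 CPM in the other bins, a ratio of 0.690 (0.594 to 0.798). The 5 lower genes were Runx1 at 0.142 (0.0966 to 0.202), Cebpa at 0.192 (0.0867 to 0.373), Rgcc at 0.652 (0.513 to 0.821), Errfi1 at 0.608 (0.394 to 0.906) and Snap25 at 0.110 on 1 luteal count.

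These other bins include the periovulatory bins. In a comparison chosen after seeing the data, against the 761 old bins that were neither periovulatory, luteal nor steroid-forming, the luteal ratio was 4.54 for Runx2, 2.61 for Rgcc and 1.65 for Errfi1, and 1.12 for Cebpb. It was 0.531 for Cebpa and 0.475 for Runx1, and Snap25 had 1 count against 2. With old bins that were luteal but neither steroid-forming nor periovulatory, against all other bins, Runx2 was at 0.885. Those other bins include the periovulatory bins and the bins that were both luteal and steroid-forming. Against bins in none of the 3 sets, the same 92 bins gave 3.10 (1.86 to 4.99) for Runx2 and 2.77 (1.66 to 4.47) for Rgcc. Errfi1 was at 1.39 on 6 counts, Cebpb at 0.749, Runx1 at 0.583 and Cebpa at 0.463 on 2 counts. Leaving out the quadrant of low x and high y, which holds the large luteal patch, gave 0.981 for Cebpa, 0.824 for Runx1 and 1.08 for Snap25 against all other bins. Without high x and low y, Rgcc was at 1.03 and Errfi1 at 1.10. Most old luteal bins, 218 of 284, formed the patch at low x and high y, where Runx2 stood at 375 CPM (313 to 446), Rgcc at 195 CPM and Cebpb at 538 CPM, and where Cebpa had 5 counts and Snap25 had 0.

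The luteal bins of the 2 sections were also set against each other. In luteal bins 4 of the genes were at least 1.5-fold higher in the old section and Cebpa was lower, where 19% of 7267 genes were higher and 26.6% were lower. Runx2 stood at 332 CPM in old and 191 CPM in young luteal bins, a ratio of 1.74 (1.38 to 2.19), and Rgcc at 204 and 103 CPM, a ratio of 1.99 (1.46 to 2.70). Cebpb stood at 509 CPM in old and 303.5 CPM in young luteal bins, a ratio of 1.68 (1.40 to 2.02), and Errfi1 had a ratio of 1.83 (1.06 to 3.12). Cebpa stood at 21.6 CPM in old and 122 CPM in young luteal bins, a ratio of 0.178 (0.0792 to 0.350), and Runx1 had a ratio of 0.726 (0.470 to 1.09). The luteal bins are not the same tissue in the 2 sections: the luteal and steroid-forming bins shared 187 of 284 bins in the old section and 49 of 318 in the young section.

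Steroid-forming bins were the fifth with the highest share of Star, Cyp11a1, Hsd3b1, Hsd17b7, Fdx1 and Fdxr, which encode proteins of cholesterol transport and progesterone synthesis. In the old section 0 of the 7 genes were higher there and 5 were lower, where 10% of 9858 genes were higher and 27.9% were lower. The 5 were Runx1 at 0.170, Cebpa at 0.331, Rgcc at 0.499, Errfi1 at 0.512 and Snap25 at 0.226. Against the bins in none of the 3 sets, Runx2 was at 4.02, Rgcc at 2.06, Errfi1 at 1.42, Cebpb at 1.23, Cebpa at 0.887 and Runx1 at 0.566, and Snap25 had 2 counts on either side. With bins that were steroid-forming but neither luteal nor periovulatory, against all other bins, the ratio was 0.351 for Runx2, 0.151 for Rgcc and 0.172 for Errfi1. Those other bins include the periovulatory and luteal bins. Against bins in none of the 3 sets, the same 96 bins gave 1.26 (0.579 to 2.46) for Runx2 on 10 counts. Rgcc was at 0.588 (0.186 to 1.44) on 5 counts and Errfi1 at 0.453 (0.053 to 1.75) on 2 counts, and these intervals all held 1. Without low x and high y, Runx2 was at 0.346 and Rgcc at 0.248 in old steroid-forming bins. In the young section Cebpb and Cebpa were higher and Rgcc and Errfi1 were lower, where 9.39% of 12069 genes were higher and 28.7% were lower. Cebpb had 400 counts or 522 CPM in young steroid-forming bins and 1065 counts or 247 CPM in the other bins, a ratio of 2.11 (1.88 to 2.37). Cebpa had 149 counts or 194 CPM there and 494 counts or 115 CPM in the other bins, a ratio of 1.70 (1.40 to 2.04). Rgcc was lower in young steroid-forming bins, at 26.1 CPM against 69.3 CPM in the other bins, a ratio of 0.376 (0.227 to 0.592), and Errfi1 had a ratio of 0.604. With the tenth of bins in place of the fifth, Cebpa was at 1.43, Errfi1 at 0.844 and Rgcc at 0.206, and without Hsd3b1 in the list Rgcc was at 0.656 and Runx2, otherwise at 1.11, was at 1.70. With steroid-forming bins that were neither luteal nor periovulatory, Runx2 was at 0.568 against all other bins. Those bins gave 1.57 (0.875 to 2.70) against young bins in none of the 3 sets. Of these 318 bins 228 were also theca bins, in which Cebpb was higher, with a ratio of 2.08, and Cebpa, with 1.57, and Runx2, Rgcc and Errfi1 were lower, where 9.67% of 12066 genes were higher and 28% were lower.

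Between the sections, steroid-forming bins differed in Runx2 and Rgcc. Runx2 stood at 294 CPM in old and 56.1 CPM in young steroid-forming bins, a ratio of 5.24 (3.67 to 7.60), and Rgcc at 161 and 26.1 CPM, a ratio of 6.19 (3.71 to 10.8). In the 96 old bins that were steroid-forming but neither luteal nor periovulatory, Runx2 stood at 92.1 CPM on 10 counts and Rgcc at 46.1 CPM on 5 counts, while the 186 bins that were also luteal held 112 Runx2 and 61 Rgcc counts. Errfi1 had a ratio of 2.33 and Cebpa of 0.186, where 22% of 6791 genes were at least 1.5-fold higher and 28.1% were lower. Cebpb stood at 559 CPM in old and 522 CPM in young steroid-forming bins, with a ratio of 1.07 (0.907 to 1.26). Cebpb, 2.41-fold higher over the whole old section, was at a similar level in the steroid-forming bins of both sections. Those bins are not the same tissue in the 2 sections, since 57 of 284 old and 228 of 318 young ones were also theca bins.

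**Figure D4:**
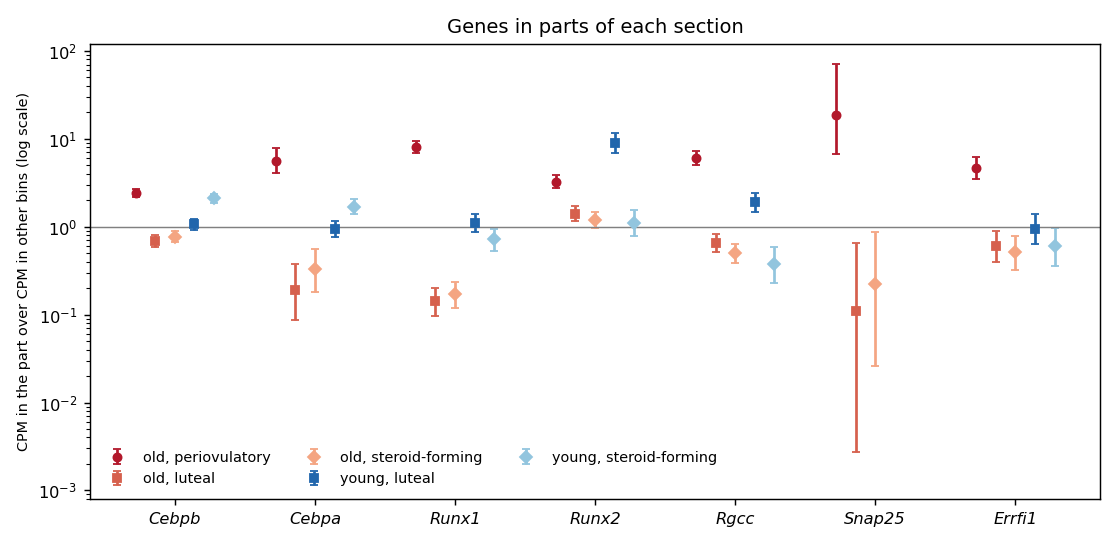
CPM in a set of bins over CPM in all other bins of the same section, on a log axis, with exact conditional 95% intervals for counting error only; the grey line marks equal levels. In the old section all 7 genes lie above 1 in periovulatory bins (2.43 to 18.5), and in the young section Runx2 stands out in luteal bins at 8.87; Snap25 has no young values because it had 0 counts.

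In old granulosa bins, named for the somatic layer around the oocyte, Cebpa and Rgcc were higher, with ratios of 1.64 and 1.61, and Snap25 was lower on 5 counts, with a ratio of 0.486 (0.149 to 1.25), where 7.21% of 9721 genes were higher and 15% were lower. Of those 284 granulosa bins, 83 were also periovulatory. In old theca bins, the steroid-forming outer coat of the follicle, 6 genes were lower and 0 higher, where 11.7% of 9921 genes were higher and 19% were lower. The other bins include the periovulatory bins. Old bins in none of the 3 sets, which overlap the theca bins, gave another comparison. Cebpb stood at 535 CPM in theca bins and 453 CPM in those bins, Runx1 at 227 and 162, and Runx2 at 102 and 73.1. Rgcc stood at 96.0 and 78.3 CPM, Cebpa at 48.0 and 40.7, and Errfi1 at 38.4 and 40.7, while Snap25 had 2 counts in each. In the 99 old bins with oocyte counts all 7 genes stayed within 1.5-fold of the other bins, where 12.3% of 10032 genes were higher and 18.9% were lower. Of those 99 bins, 27 were also periovulatory, and the other bins include the remaining periovulatory bins. Runx1 stood at 467 CPM in oocyte bins and 162 CPM in bins in none of the 3 sets, Runx2 at 276 and 73.1. Rgcc stood at 331 and 78.3 CPM, Cebpb at 713 and 453, Cebpa at 115 and 40.7, and Errfi1 at 84.8 and 40.7. Snap25 had 3 and 2 counts.

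In the other sets of bins of the young section the genes took different places. Runx2 was low in granulosa bins, with 8 counts or 5.49 CPM (2.37 to 10.8) against 69.8 CPM in the other bins, a ratio of 0.0786. Rgcc was higher in the same bins, at 87.8 CPM against 52.7 CPM, a ratio of 1.67 (1.32 to 2.10), and Errfi1 was lower, at 0.658, where 10.4% of 11833 genes were higher and 24.7% were lower. Errfi1 had its highest young level in oocyte bins, with 84 counts or 70.8 CPM against 28.8 CPM in the other bins, a ratio of 2.46 (1.83 to 3.30), where 18.7% of 11784 genes were higher and 17.9% were lower. Of the 6 genes Errfi1 alone was higher in young oocyte bins, and Cebpa, Runx2 and Rgcc were lower, with ratios of 0.480, 0.348 and 0.654.

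The share of Runx2 among the counts of both RUNX genes gives the balance of the pair in a place. Within old tissue it was 30.2% (27.5 to 32.9, Clopper-Pearson) in periovulatory bins, 81.2% (74.5 to 86.8) in luteal bins and 35.9% over all bins. In the young section it was 64.3% (58.2 to 70.0) in luteal bins, 4.55% (1.98 to 8.76) in granulosa bins and 34.5% over all bins. The share over all bins was thus close in the sections, while places within a section ranged widely, and luteal bins had the highest share in each. In the 186 old bins that were luteal and steroid-forming but not periovulatory it was 84.2%.

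The share of Cebpa among the counts of both C/EBP genes was lower in every old part shown than in the young parts. It was 15.6% (13.4 to 18.1) in old periovulatory bins and 4.07% (1.88 to 7.59) in old luteal bins. Over all bins it was 12.0% in the old section, against 30.5% in the young section. In the young section it was 37.8% (33.7 to 42.0) in granulosa bins, 28.6% in luteal bins and 38.2% (32.2 to 44.6) in the 130 bins with a periovulatory count. The plot of both pairs shows the separation of the sections for the C/EBP pair and of the parts for the RUNX pair.

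**Figure D5:**
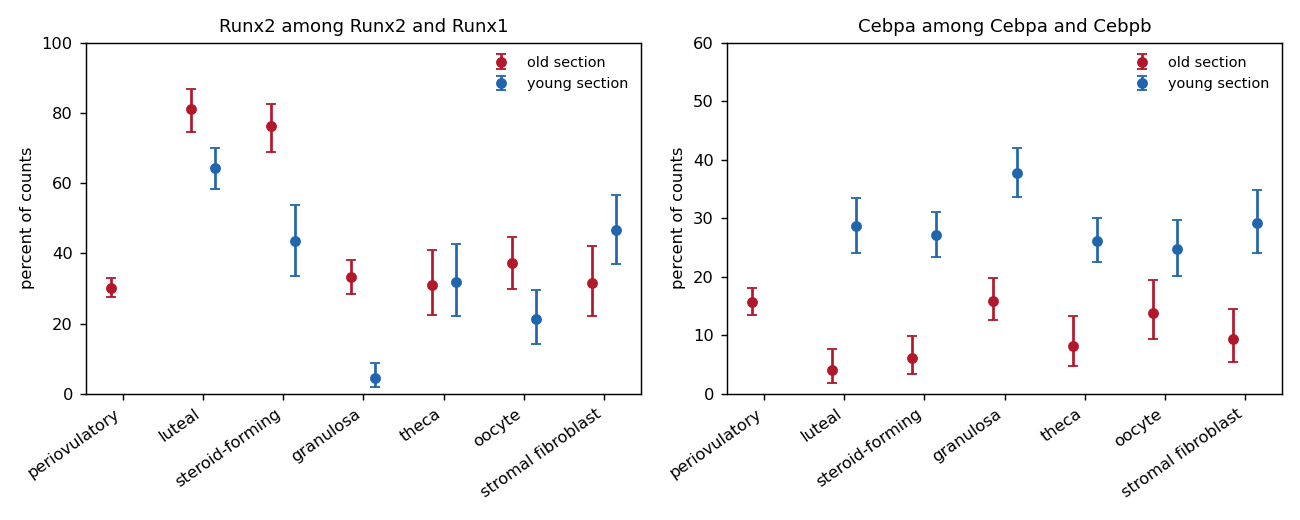
Percent of counts of a gene pair that came from Runx2 (left) or Cebpa (right), by set of bins, in the old section (red) and the young section (blue), with exact binomial 95% intervals for counting error only. Runx2 takes 81.2% in old and 64.3% in young luteal bins, and Cebpa takes a smaller share in the old than in the young section in every set shown; young periovulatory bins are left out because the list had 153 counts.

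Over the 392 old squares of 10 bead spacings with at least 2000 counts, Pearson's r of log2(CPM + 100) with the periovulatory list was 0.611 for Runx1, 0.540 for Rgcc, 0.470 for Cebpa, 0.438 for Runx2, 0.435 for Errfi1 and 0.406 for Cebpb. Among themselves the highest r was 0.438, between Runx1 and Rgcc. Over 404 young squares the values among these 6 genes ran from -0.155 to 0.186. Runx2 had the highest r with the luteal list in both sections, at 0.551 in the young and 0.368 in the old. With the steroid-forming list the young values were highest for Cebpb, at 0.356, and Cebpa, at 0.311, and lowest for Runx1, at -0.256. Squares of a section share a library and differ in depth, and these values are descriptions.

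The genes whose pattern was most like each one, among 5030 genes for the old section and 7805 genes for the young section, differed with the section. In the old section Adamts1, at r of 0.612, and Bves, at 0.607, were most like Runx1, followed by Crispld2, Prkg2 and Apoa1. Ephx2, an epoxide hydrolase gene, led for Runx2 at 0.567 and for Rgcc at 0.553, and the matrix gene Vcan was among the 5 most like Cebpa (0.472) and Errfi1 (0.431). Cebpb was most like Prkg2 at 0.422 in the old section. In the young section Runx2 was most like the luteal genes Onecut2 at 0.617 and Ptgfr at 0.580, followed by Sgk1, Tnc and Lipg. Cebpb was most like Akr1cl at 0.415 and Mgarp at 0.382 there, with Fdx1 and Cyp11a1 after them, and Cebpa was most like Lhcgr at 0.361. The highest values for Runx1, Rgcc and Errfi1 in the young section, with Sdc1, Nupr1 and Aunip, were below 0.3 and are too weak to read.

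Lists of genes that work with the 7 were set beside them. Of 78 measured pathway genes, 26 were at least 1.5-fold higher in the old section and 19 were lower (22.6% and 25.4% of all genes), with a median ratio of 1.14 against 0.988 over all genes measured. In the periovulatory bins 16 of 62 were higher and 9 were lower (12.6% and 26.3% of all genes), with a median of 1.08 against 0.907 over all genes. The other C/EBP family members stayed within 1.5-fold in both comparisons, with 0 of 4 past that size between sections and 0 of 3 in the periovulatory bins. Cebpg had a ratio of 1.20 between sections and 1.23 in the periovulatory bins.

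Of the RUNX partners, 3 of 6 were higher in the periovulatory bins and 1 was lower, while between sections 0 of 7 were higher and 3 were lower; the shares of all genes were 12.6% and 26.3%, and 22.6% and 25.4%. Hipk2, a kinase that acts with RUNX factors, stood at 165 CPM in periovulatory bins and 31.1 CPM in the other bins, a ratio of 5.29 (3.73 to 7.60). The corepressor gene Tle3 had a ratio of 2.26, and Tle1 of 0.481. Between sections the lowest was Runx1t1, with 11 old and 121 young counts, and Cbfa2t3 had a ratio of 0.402. Over whole sections Hipk2 had a ratio of 1.05 (0.865 to 1.26).

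Of the surge-response transcription regulators, 6 of 14 were higher in the periovulatory bins and 3 were lower (12.6% and 26.3% of all genes), so the lower count is near the background. Fosl1, an AP-1 subunit gene, had 27 counts in periovulatory bins and 3 in the other bins, a ratio of 18.5 (5.71 to 95.5). Cited2, a CBP/p300-binding regulator, stood at 1427 CPM in periovulatory bins and 257 CPM in the other bins, a ratio of 5.56 (4.94 to 6.28). Klf4 was lower there, with a ratio of 0.309. Between sections 8 of 19 were higher and 5 were lower (22.6% and 25.4% of all genes), among them Fosl1 with 30 old and 2 young counts, Bhlhe40 at 3.60 and, lower in the old section, Fos at 0.266.

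Of the EGF receptor and ERK genes, on whose pathway Errfi1 acts, 2 of 13 were higher in the periovulatory bins and 2 were lower, near the 12.6% and 26.3% of all genes. The kinase gene Map2k1 had a ratio of 2.09 and Egfr of 1.59, and the ERK gene Mapk3 of 0.418. Between sections 7 of 18 were higher and 4 were lower (22.6% and 25.4% of all genes), with the ERK phosphatase gene Dusp1 at 2.68 and the ligand gene Hbegf at 0.465. Of the SNARE genes, the partners of Snap25, 5 of 18 were higher and 3 were lower between sections (22.6% and 25.4% of all genes), and in the periovulatory bins the 16 measured had a median ratio of 0.897, against 0.907 over all genes. The close relative Snap23 was lower in the old section, with a ratio of 0.479, and the SNARE-recycling ATPase gene Nsf had a ratio of 0.233, while the syntaxin gene Stx1a was higher, at 3.20.

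Of the mitotic entry genes around Rgcc, 3 of 5 were higher in the periovulatory bins and 0 were lower (12.6% and 26.3% of all genes). Aurka had a ratio of 3.95 on 23 periovulatory counts, Ccnb2 of 2.12 and Cdk1, the kinase that RGCC binds, of 1.94. Between sections 1 of 6 was higher, Cdc25c at 1.95, and 3 were lower, among them Ccnb1 at 0.222 and Aurka at 0.254 (22.6% and 25.4% of all genes). All 6 were lower in luteal bins of the old section (median ratio 0.178, 28.1% of all genes lower) and of the young section (0.207, 26.4% lower), and likewise in steroid-forming bins of the old section (0.0659, 27.9% lower) and of the young section (0.202, 28.7% lower). Against all other bins, Rgcc itself was higher in young luteal bins and lower in the other 3 of these sets. Against old bins that were neither periovulatory, luteal nor steroid-forming, its ratio was 2.61 in old luteal and 2.06 in old steroid-forming bins.

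Of the genes known to depend on Cebpb or Runx2 in granulosa or luteal cells, the angiogenic factor gene Vegfa was higher in the periovulatory bins, at 488 CPM against 148 CPM in the other bins, a ratio of 3.29 (2.77 to 3.92). The transporter gene Abcb1b was lower there, with a ratio of 0.334, yet between sections it was higher in the old section, at 1238 CPM against 165 CPM, a ratio of 7.52. Star had a ratio of 1.30 in the periovulatory bins and 7.44 between sections. Over this list, 1 of 5 genes was higher and 1 lower in the periovulatory bins (12.6% and 26.3% of all genes), and 5 of 6 were higher and 1 lower between sections (22.6% and 25.4%).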

How the data were processed

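The authors deposited, for each section, a table of whole-number counts per gene and bead and a table of bead positions; mm10 was the build per the submitters' processing notes, while the sources used here name no aligner or counter and do not say whether the deposited counts are molecules or reads. The members and lists were chosen with earlier results of these data known. With Python 3.11.15, numpy 2.4.6, scipy 1.17.1, pandas 2.3.3 and matplotlib 3.10.9, beads were summed into squares of 5 bead spacings with at least 500 counts. A set of bins was the fifth with the highest share of a marker list, never bins without a count of it. The planned equal groups by periovulatory share were replaced by steps, since 37.0% of old bins had a count of that list.

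CPM carry exact Poisson intervals and ratios exact conditional Clopper-Pearson intervals, both at 95% and for counting error only; the code was tested on simulated data. A gene counted as measured with at least 20 counts on 1 side and as higher or lower from 1.5-fold. Snap25, unlisted in the young table, was taken as 0, with a floor of 3 counts. Patches were groups of at least 8 touching bins. Named genes were the 7 members, from each pathway list the measured gene with most counts and up to 2 at either end of the ratios, and the 5 most alike by Pearson's r among genes with at least 100 counts. Alternatives changed the beads, scaling total, bin size, set size, lists, size rule and quadrants used. No doublet caller was run. Counts of SNARE genes past 1.5-fold in the periovulatory bins are not reported here.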

Additional observations from a re-analysis of the deposited data

Results flagged for a closer look

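For 6 pairs of values the old and the young section lay on opposite sides of the 1.5-fold size in the same kind of bins. None of these differences between sections was tested, since each section was 1 library, and the bins behind a list need not hold the same tissue in both. Runx1 had a ratio of periovulatory to other bins of 8.04 in the old section, against 0.638 in the young section, where the list had few counts. Rgcc had a luteal ratio of 0.652 in the old section, against 1.89 in the young section, and the old value turned round against bins in none of the periovulatory, luteal and steroid-forming sets. Cebpa had a steroid-forming ratio of 0.331 in the old section, against 1.70 in the young section, a theca ratio of 0.466 in the old section, against 1.57 in the young section, and a smooth muscle ratio of 0.600 in the old section, against 1.55 in the young section. Runx2 had a macrophage ratio of 0.354 in the old section, against 2.88 in the young section, where 125 of the 318 luteal bins were also macrophage bins. For these old Cebpa and Runx2 ratios too, the other bins include periovulatory bins. Against old bins in none of the 3 sets, the Cebpa steroid-forming ratio was 0.887. Cebpa stood at 48.0 CPM in old theca, 61.0 CPM in old smooth muscle and 40.7 CPM in none-of-3 bins. Runx2 stood at 98.6 CPM in old macrophage bins and 73.1 CPM in none-of-3 bins.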

How the results depend on the processing

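No paired analysis was possible because the sections share no replicate number and each group is 1 library. The steps of periovulatory share without Adamts1 were not run. Under the alternatives other than the 3 chosen after seeing the data, 125 values of the counts of members or pathway genes past 1.5-fold stayed within 1.5 times and 25 moved. For single ratios and r between members, staying meant lying inside the interval of the main value: 359 stayed, 133 moved and 3 turned round. The 3 alternatives chosen after seeing the data (spacing over beads with counts, no periovulatory bins, and bins in none of the 3 sets) moved 6 such counts and left 14, and turned round 6 ratios. Between sections, 1 of the 7 genes was lower with bins weighted equally, without the old quadrant of low x and low y, or without that of high x and low y; without the periovulatory bins 3 were higher and 1 lower. In old luteal bins the genes higher and lower were 3 lower with the tenth of bins, 1 higher and 3 lower without low x and low y, 1 lower without low x and high y (Snap25 at 1.08), 1 higher and 2 lower without high x and low y (Rgcc 1.03, Errfi1 1.10), and 3 higher and 2 lower against bins in none of the 3 sets, the higher being Runx2 at 4.54, Rgcc at 2.61 and Errfi1 at 1.65 (Snap25 turned round to 1.15 on 1 count against 2). In old steroid-forming bins they were 3 lower without Hsd3b1, 1 higher without low x and low y, 1 higher and 2 lower without high x and low y, and 2 higher and 1 lower against bins in none of the 3 sets, the higher being Runx2 at 4.02 and Rgcc at 2.06 and the lower Runx1 (Errfi1 and Snap25 turned round to 1.42 and 2.31, Snap25 on 2 counts against 2). In young luteal bins 1 was higher with the third of bins, and 1 lower with squares of 3 spacings or without high x and low y. In young steroid-forming bins 1 was higher and 1 lower with the tenth of bins or squares of 8 spacings, and 1 lower without low x and high y. With a size of 2-fold, 14 pathway genes were higher and 10 lower between sections and 4 lower in periovulatory bins; with at least 50 counts, 10 were higher in periovulatory bins. A stricter size or minimum leaves fewer genes by construction; for the other changes the cause was not tested. Trimmed-mean scaling shifted the sections by 0.06 on the log2 scale. Snap25, with 41 counts, and Cebpa in old luteal bins, with 9, are limited by depth.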
